A study of Homo sapiens with 6 samples.

Results

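The genes described here encode 9 surface or secreted proteins of tumour cells that engage inhibitory or modulating receptors on T cells, natural killer cells and macrophages: CD274 (PD-L1), PDCD1LG2 (PD-L2), CD276 (B7-H3), VTCN1 (B7-H4), LGALS9 (galectin-9), CD47, PVR, NECTIN2 and TNFRSF14. They were listed by name, with earlier results of these data known, and all 9 were found by gene identifier among the 19402 genes of the count table. The 6 libraries were made from poly(A) RNA of CFPAC1, a cell line from a human pancreatic ductal adenocarcinoma. The WT group held 3 pools of clones isolated by dilution after infection with the lentiviral CRISPR vector that the labels spell lentiCRIPSv2, and the IRF1-KO group held 3 pools of clones isolated after infection with the same vector carrying wild-type Cas9 and a guide RNA against IRF1. No interferon or other stimulus is named in the labels of these 6 libraries. Whether the pools came from separate cultures is not in the labels, so each p-value reflects only how much these particular pools varied, which may be technical.

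Checkpoint ligands set how strongly an immune cell responds to the cell that carries them. Binding of PD-L1 or PD-L2 to PD-1 dampens T cell activity, CD47 binds SIRP alpha on macrophages as a signal against engulfment, and PVR and nectin-2 bind the activating receptor CD226 as well as the inhibitory receptor TIGIT. IRF1 is a transcription factor of the interferon response, and PD-L1, PD-L2 and galectin-9 are known as interferon-inducible in many cell types.

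Whole-series facts that bear on these genes are as follows. Total counts ranged from 16413682 to 28258075 per library, and 13388 genes were tested. IRF1 itself was not lower where it was labelled knocked out: it had 87.3, 91.3 and 82.6 CPM (counts scaled to a common library size) in WT pools 1 to 3 and 117, 123 and 132 CPM in KO-labelled pools 1 to 3. Counts over all exons do not check a small Cas9 edit, so every direction given here follows the labels, and the IRF1-KO libraries are called KO-labelled pools. All 7 epithelial markers (EPCAM, KRT7, KRT8, KRT18, KRT19, CDH1 and CLDN4) were expressed, with summed levels of 4266 to 7095 CPM for WT and 4939 to 6896 CPM in the libraries labelled IRF1-KO. Of 13 leukocyte markers, MS4A1 had no count in any library, and the mean of PTPRC, which encodes CD45, was 0.0888 CPM for WT and 0.0764 CPM in the KO-labelled pools. The summed leukocyte level, 133 to 191 CPM for WT and 132 to 159 CPM in the KO-labelled pools, was mostly CD68, with means of 149 and 144 CPM. Of 8 endothelial and fibroblast markers, COL1A1 was the most abundant, with means of 35.0 and 55.7 CPM, and the summed level was 33.4 to 51.4 CPM for WT and 36.3 to 77.8 CPM in the KO-labelled pools.

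Promoter sequences are shown for CD274 and LGALS9, whose windows hold the paired IRF motif described next, and for CD47, whose window holds none. Sequences from RefSeq (GRCh38.p14), running from 250 bases before to 50 bases after the annotated gene start, were matched by symbol for 8 of the 9 genes. Both strands were searched for the paired IRF motif (GAAA, any 2 bases, GAAA), bound by interferon regulatory factors, and for the STAT motif (TTC, any 3 bases, GAA), bound by STAT dimers. The first motif was found in 3.57% and the second in 7.66% of all 35116 windows of the same length. Capitals mark the matches, 5′ to 3′ on the gene's strand.
CD274 (chr9:5450292-5450591, plus strand): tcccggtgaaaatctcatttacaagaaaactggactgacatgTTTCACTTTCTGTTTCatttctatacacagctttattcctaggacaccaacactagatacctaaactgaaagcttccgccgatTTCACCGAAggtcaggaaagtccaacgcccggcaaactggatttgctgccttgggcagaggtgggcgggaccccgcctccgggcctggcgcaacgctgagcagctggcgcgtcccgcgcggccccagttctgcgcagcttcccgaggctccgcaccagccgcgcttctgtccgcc
LGALS9 (chr17:27630938-27631237, plus strand): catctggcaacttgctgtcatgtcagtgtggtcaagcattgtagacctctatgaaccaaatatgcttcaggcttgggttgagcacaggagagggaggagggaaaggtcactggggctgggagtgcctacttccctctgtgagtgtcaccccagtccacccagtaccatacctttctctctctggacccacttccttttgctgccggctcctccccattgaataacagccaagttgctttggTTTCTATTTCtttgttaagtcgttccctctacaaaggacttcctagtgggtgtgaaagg
CD47 (chr3:108090982-108091281, minus strand): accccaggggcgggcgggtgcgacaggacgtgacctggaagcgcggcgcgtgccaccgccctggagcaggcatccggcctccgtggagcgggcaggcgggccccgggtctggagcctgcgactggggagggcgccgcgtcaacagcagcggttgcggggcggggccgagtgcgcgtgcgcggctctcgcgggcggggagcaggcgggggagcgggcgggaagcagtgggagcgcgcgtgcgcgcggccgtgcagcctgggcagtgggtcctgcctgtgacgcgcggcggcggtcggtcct
The CD274 window holds 2 paired IRF motif matches on the minus strand, at -208 to -199 and at -202 to -193 from the gene start, which overlap each other, and 1 STAT motif match at -125 to -117. The LGALS9 window holds 1 paired IRF motif match on the minus strand, at -9 to 0, where 0 is the start base, which in RefSeq lies inside the span the count table gives for LGALS9. Neither motif was found in the windows of CD276, VTCN1, CD47, PVR, NECTIN2 or TNFRSF14, which says only that these letters are not in those windows.

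None of the 9 genes passed the threshold of 0.05 on p-values adjusted by Benjamini-Hochberg across the tested genes, from edgeR's quasi-likelihood test of 3 pools against 3, where 0.127% of all tested genes did. LGALS9, PDCD1LG2 and CD47 had lower levels in every library labelled IRF1-KO than in every WT library, a pattern held by 6.75% of tested genes, and CD276 had higher levels in every one, a pattern held by 8.03%. At an unadjusted p under 0.05, 4 members were lower (LGALS9, PDCD1LG2, CD47 and TNFRSF14), against 3.75% of tested genes, and 1 was higher (CD276), against 5.39%; in either direction, 9.14% of tested genes were under 0.05. DESeq2 called 3 of the 9 at an adjusted p under 0.05 (LGALS9, CD47 and CD276), against 2.53% of the genes it gave an adjusted p, and limma-voom called 0. The median log2 fold change of the 9 was -0.48, beside -0.02 over all tested genes. PDCD1LG2 was above the floor of the filter on low counts (0.504 CPM) in 3 WT libraries and 2 libraries labelled IRF1-KO. It would not have passed on the KO-labelled libraries alone. The filter did not force a lower level there, but a gene kept in this way is more likely to be lower. Its place in these counts and in the median is therefore not taken as support.

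**Figure D1:**
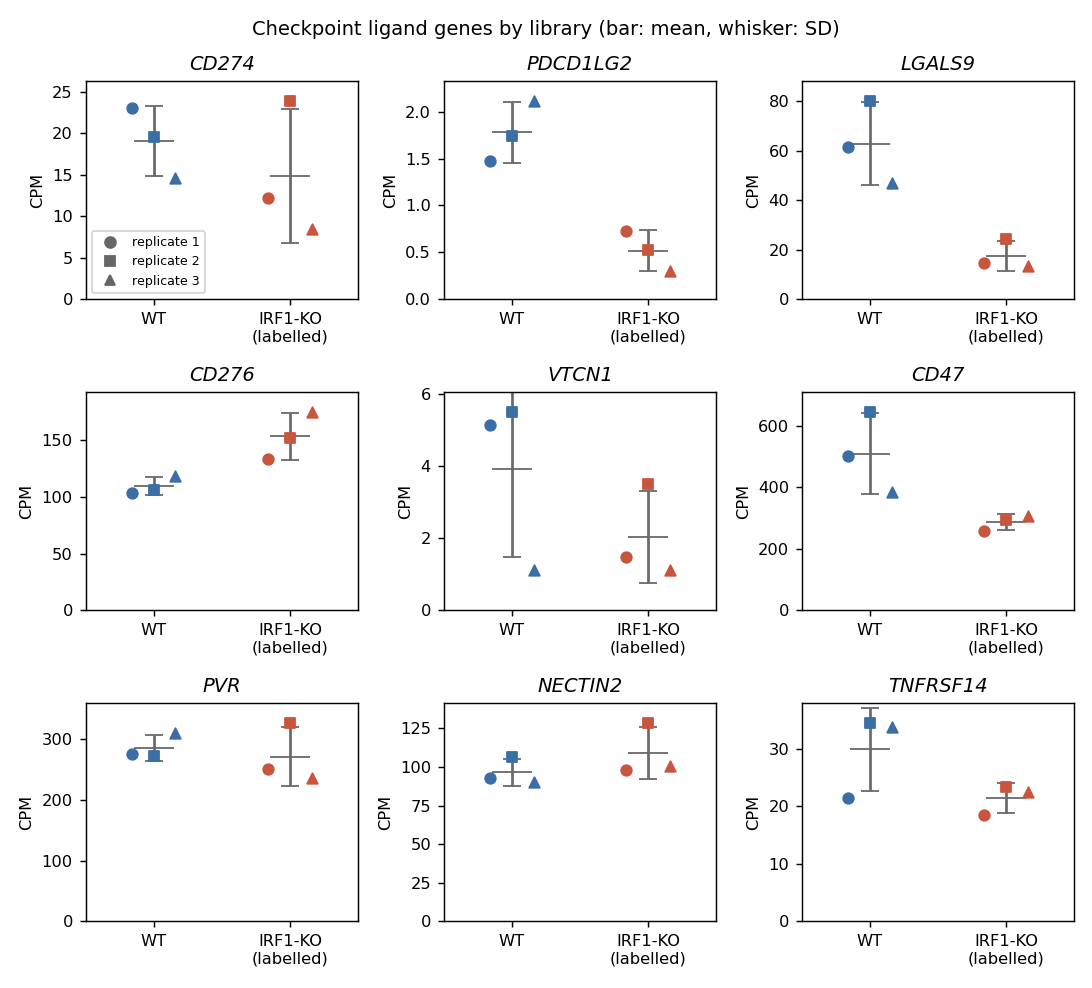
CPM of each of the 9 genes by library, with WT at the left and the KO-labelled pools at the right of each panel; point shapes give the replicate number, bars the mean and whiskers the SD (n = 3). LGALS9, PDCD1LG2, CD47 and CD276 are the genes whose groups do not overlap, while the CD274 panel shows KO-labelled pool 2 at 23.9 CPM, above every WT library.

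The PD-1 ligands CD274 and PDCD1LG2 lie side by side on chromosome 9 but had different patterns across the 6 libraries. CD274 (ENSG00000120217.14; GRCh38 chromosome 9, 5450503 to 5470566, plus strand) had 23.0, 19.5 and 14.6 CPM in WT pools 1 to 3 and 12.3, 23.9 and 8.43 CPM in KO-labelled pools 1 to 3. The groups overlapped: KO-labelled pool 2 was the highest of all 6 libraries, and KO-labelled pools 1 and 3 were the lowest. The means were 19.1 ± 4.23 CPM for WT and 14.9 ± 8.07 CPM in the KO-labelled pools (SD, n = 3 each). Its fitted log2 fold change was -0.35 ± 0.38 (SE, adjusted p = 0.852), with a 95% interval from -1.24 to 0.53, which holds 0. It was -0.89 without KO-labelled pool 2, -0.07 without KO-labelled pool 3, -0.22 without KO-labelled pool 1 and -0.18 without WT pool 1, and no alternative called it.

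PDCD1LG2 (ENSG00000197646.7; chromosome 9, 5510570 to 5571254, plus strand) was the least abundant member, counted 27, 32 and 44 times in WT and 12, 15 and 8 times in the KO-labelled pools. These counts correspond to 1.48, 1.74 and 2.11 CPM in WT pools 1 to 3 and 0.732, 0.524 and 0.300 CPM in KO-labelled pools 1 to 3. Every library labelled IRF1-KO was below every WT library. The means were 1.78 ± 0.320 and 0.518 ± 0.216 CPM (SD, n = 3 each), a log2 fold change of -1.80 ± 0.42 (SE) with a 95% interval from -2.77 to -0.83 (edgeR adjusted p = 0.187). The direction was the same in all 14 alternatives that tested it, with adjusted p from 0.0710 to 0.534.

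Within a library, the log2 ratio of PDCD1LG2 to CD274 was -3.88, -3.42 and -2.74 in WT pools 1 to 3 and -3.90, -5.28 and -4.44 in the KO-labelled pools. The ratio was lower in every library labelled IRF1-KO, by a narrow margin between WT pool 1 and KO-labelled pool 1. The mean difference was -1.20, with an exact two-sided permutation p of 0.1 (adjusted p = 0.167 over 5 ratios), which is the smallest p that 3 against 3 allows. PDCD1LG2 would not have passed the filter on low counts on the KO-labelled libraries alone, and this ratio was added after the data were seen. The ratio is therefore not taken as support. A ratio within a library does not depend on the scaling between libraries.

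The genes on either side of the PD-1 ligands were examined by position, after their values were seen. A stretch of 40003 bases separates CD274 from PDCD1LG2. JAK2, the kinase that carries the interferon-gamma signal, lies 322319 bases before CD274 and had a log2 fold change of -0.48 ± 0.18 (SE, edgeR adjusted p = 0.477). PLGRKT, which encodes a plasminogen receptor and precedes CD274, was at 0.05 ± 0.16, and RIC1, which follows PDCD1LG2, was at 0.08 ± 0.11. No gene of this stretch from JAK2 to ERMP1 passed the adjusted threshold.

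The B7 family genes CD276 and VTCN1 differed in level and in how well the pools of a group matched. CD276 (ENSG00000103855.18; chromosome 15, 73683966 to 73714514, plus strand), whose protein B7-H3 is widely present on solid tumours, had 104, 106 and 118 CPM in WT pools 1 to 3 and 134, 152 and 175 CPM in KO-labelled pools 1 to 3. All libraries labelled IRF1-KO were above all WT libraries, and CD276 was the member with the largest positive difference. The means were 110 ± 7.79 and 153 ± 20.6 CPM (SD, n = 3 each). On the log2 scale the fitted change was 0.49 ± 0.13 (SE, 95% interval 0.19 to 0.78, edgeR adjusted p = 0.249), and DESeq2 gave it an adjusted p of 0.0374, within a range of 0.0374 to 0.627 over the 15 alternatives.

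The CD276 transcript is GC-rich (61.0%), and GC-rich genes had higher values in the KO-labelled pools, by amounts that differed between libraries. For the 477 tested genes over 65% GC, median log2 deviations were -0.59, -0.13 and -0.0953 in WT pools 1 to 3. They were 0.0967, 0.46 and 0.31 in KO-labelled pools 1 to 3. The 1517 tested genes with transcripts of 60 to 65% GC were shifted upward, their median log2 difference being 0.19, or 0.00331 after a correction for GC content. CD276 was then at 0.37 ± 0.13 (SE, edgeR adjusted p = 0.559).

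VTCN1 (ENSG00000134258.17; chromosome 1, 117143587 to 117210960, minus strand), which encodes B7-H4, an inhibitor of T cell activation, was low in all pools. It had 5.14, 5.49 and 1.11 CPM in WT pools 1 to 3 and 1.46, 3.49 and 1.12 CPM in the KO-labelled pools. WT pool 3 lay with the lowest libraries of the other group, so the groups overlapped. Its fitted log2 fold change was -0.93 ± 0.66 (SE, 95% interval -2.48 to 0.61, edgeR adjusted p = 0.766). It was -1.60 without KO-labelled pool 2 and -1.36 without WT pool 3, and -0.61 without WT pool 2 and -0.64 without KO-labelled pool 3.

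**Figure D2:**
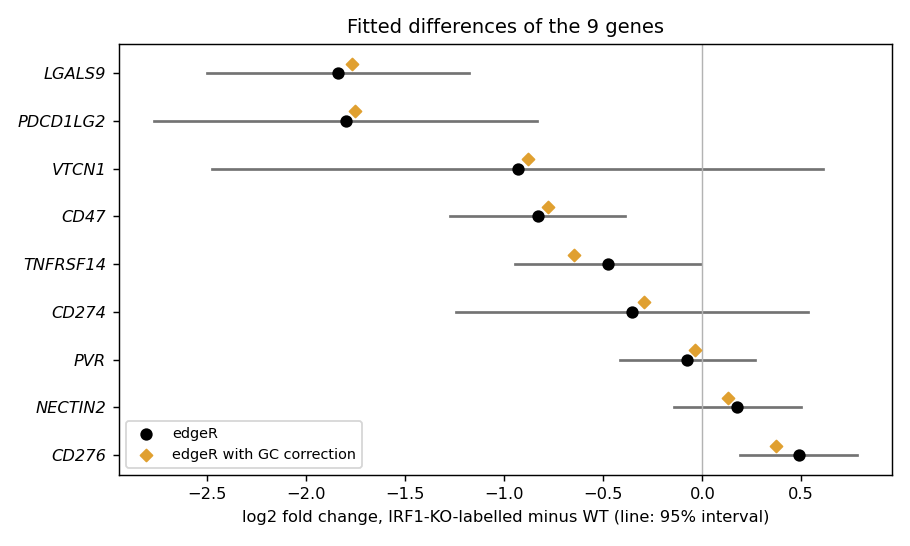
Fitted log2 fold change of each gene (IRF1-KO-labelled minus WT) on the horizontal axis, with edgeR's estimate as black points, its 95% interval as lines and the estimate after GC correction as diamonds. LGALS9 (-1.84) and PDCD1LG2 (-1.80) lie farthest to the left with intervals below 0, and the intervals of CD274, VTCN1, PVR and NECTIN2 cross 0.

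LGALS9 had the smallest p of the 9 genes and a level about 3.58-fold lower in the libraries labelled IRF1-KO. It encodes galectin-9, a sugar-binding protein that engages TIM-3 on T cells. LGALS9 (ENSG00000168961.17; chromosome 17, 27629798 to 27649560, plus strand) had 61.4, 80.1 and 46.8 CPM in WT pools 1 to 3 and 14.7, 24.3 and 13.4 CPM in KO-labelled pools 1 to 3. The lowest WT library was well above the highest library labelled IRF1-KO, and pool 2 was the highest of both groups. The means were 62.8 ± 16.7 and 17.5 ± 5.95 CPM (SD, n = 3 each), a log2 fold change of -1.84 ± 0.28 (SE) with a 95% interval from -2.50 to -1.18.

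The edgeR adjusted p of LGALS9 was 0.0854, above the threshold, at rank 41 of 13388 genes by p. DESeq2 gave it 5.74e-08, and without WT pool 3 edgeR gave a log2 fold change of -1.99 at an adjusted p of 0.0409. Over all 15 alternatives the direction was the same and the adjusted p ran from 5.74e-08 to 0.403. After GC correction the log2 fold change was -1.77 ± 0.26 (SE). In bulk RNA of pooled clones, fewer expressing cells and less RNA per cell cannot be told apart.

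LGALS9B and LGALS9C are close copies of LGALS9 elsewhere on chromosome 17, and reads of the 3 genes may be split among them in a way the sources used here do not state. Both copies, named for this reason after their values were seen, were low. LGALS9B had 9.63, 5.22 and 4.18 CPM for WT and 3.54, 9.18 and 2.62 CPM in the KO-labelled pools, with a log2 fold change of -0.30 ± 0.52 (SE). LGALS9C had 4.65, 2.39 and 1.44 CPM for WT and 1.65, 3.80 and 0.974 CPM in the KO-labelled pools, with a log2 fold change of -0.39 ± 0.60 (SE). Their groups overlapped, and neither passed the adjusted threshold.

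The log2 ratio of LGALS9 to CD274 within a library was 1.41, 2.03 and 1.67 in WT pools 1 to 3 and 0.26, 0.02 and 0.66 in the KO-labelled pools. Every library labelled IRF1-KO was lower, with means of 1.71 ± 0.31 and 0.32 ± 0.32 (SD, n = 3 each). The difference was -1.39, at an exact two-sided permutation p of 0.1 (adjusted p = 0.167 over 5 ratios), again the smallest possible. This ratio was also added after the data were seen, so it is not taken as support.

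CD47, the signal that macrophages read through SIRP alpha, was the most abundant member in WT. CD47 (ENSG00000196776.16; chromosome 3, 108043091 to 108091862, minus strand) had 500, 644 and 383 CPM in WT pools 1 to 3 and 256, 294 and 307 CPM in KO-labelled pools 1 to 3. The WT pools were spread more widely than the other group, and the groups did not overlap. The means were 509 ± 131 and 286 ± 26.4 CPM (SD, n = 3 each), a 1.78-fold lower level in the KO-labelled pools. The log2 fold change was -0.83 ± 0.19 (SE, 95% interval -1.28 to -0.39) with an edgeR adjusted p of 0.182. DESeq2 gave an adjusted p of 0.00335, within a range of 0.00335 to 0.485 over the 15 alternatives, and without WT pool 3 edgeR gave -0.98 at 0.0515. Glutaminyl cyclases modify CD47 so that SIRP alpha can bind it: QPCTL, the one known for this step, had a log2 fold change of 0.15 ± 0.20 (SE, adjusted p = 0.884), and SIRPA itself, also named after its value was seen, was at -0.38 ± 0.34 (adjusted p = 0.819).

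PVR and NECTIN2, the nectin family ligands of CD226 and TIGIT, showed little difference between the groups. PVR (ENSG00000073008.15; chromosome 19, 44643798 to 44666162, plus strand) had 275, 272 and 310 CPM in WT pools 1 to 3 and 251, 326 and 236 CPM in the KO-labelled pools. The libraries labelled IRF1-KO held both the lowest and the highest value. Its fitted log2 fold change was -0.07 ± 0.15 (SE, edgeR adjusted p = 0.926), and the 95% interval of this fit ran from -0.41 to 0.26. Its exons share 121 bases with those of CEACAM19 on the same strand, which was far less abundant, with at most 926 counts in a library against at least 4112 for PVR.

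NECTIN2 (ENSG00000130202.10; chromosome 19, 44846175 to 44889223, plus strand) lies 180012 bases beyond PVR. It had 92.9, 106 and 90.1 CPM in WT pools 1 to 3 and 98.2, 128 and 100 CPM in the KO-labelled pools. The groups overlapped, with pool 2 highest in both. The log2 fold change was 0.18 ± 0.14 (SE, 95% interval -0.14 to 0.50, edgeR adjusted p = 0.789). The log2 ratio of NECTIN2 to PVR was -1.57 ± 0.21 in WT and -1.31 ± 0.07 in the KO-labelled pools (SD, n = 3 each), a difference of 0.26 with an exact two-sided permutation p of 0.1 (adjusted p = 0.167 over 5 ratios). The ratios of WT pool 2 (-1.3514) and of KO-labelled pool 1 (-1.3511) were nearly the same. Like the other ratios, that of NECTIN2 to PVR was added after the data were seen and is not taken as support.

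TNFRSF14, also called HVEM, is a receptor of the TNF receptor family that itself serves as a ligand for BTLA and CD160 and binds the cytokine LIGHT. TNFRSF14 (ENSG00000157873.17; chromosome 1, 2555639 to 2565382, plus strand) had 21.5, 34.4 and 33.7 CPM in WT pools 1 to 3 and 18.5, 23.4 and 22.5 CPM in KO-labelled pools 1 to 3. The groups overlapped through WT pool 1, which was the lowest WT library. Its fitted log2 fold change was -0.48 ± 0.20 (SE, 95% interval -0.95 to -0.00722, edgeR adjusted p = 0.538). Its transcript is 62.2% GC, and unlike CD276 its value moved away from 0 after the GC correction, to -0.65 ± 0.16 (SE, adjusted p = 0.301). TNFSF14, the gene of its ligand LIGHT, had 8.10 CPM in WT pool 2 and between 0.225 and 1.35 CPM in the other libraries.

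**Figure D3:**
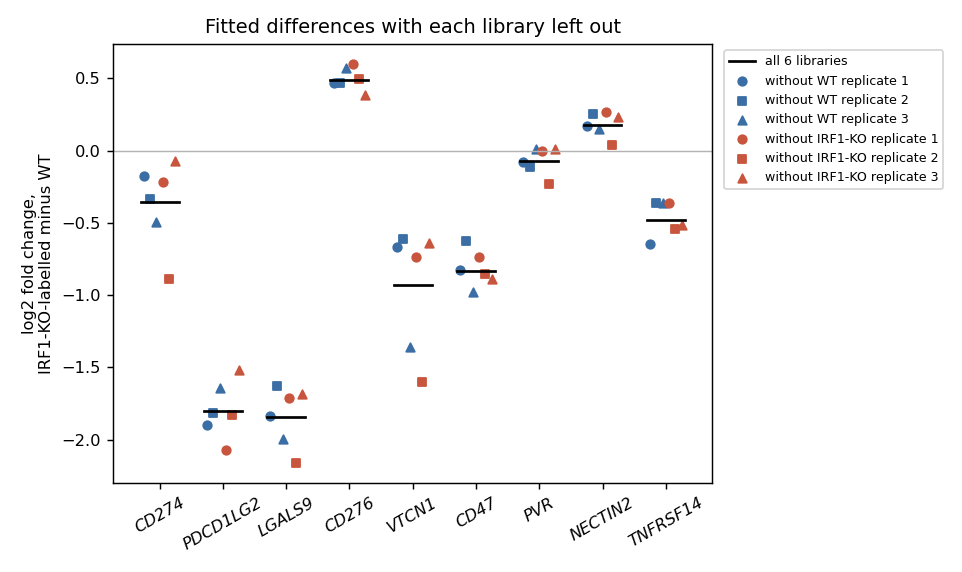
Fitted log2 fold change of each gene with all 6 libraries (black bars) and with each library left out in turn (points; colour gives the group and shape the replicate left out). LGALS9 stays between -2.16 and -1.63, whereas CD274 moves between -0.89 and -0.07 and VTCN1 between -1.60 and -0.61.

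Ratios to CD274 were also compared for CD47 and CD276. The log2 ratio of CD47 to CD274 was 4.72 ± 0.30 in WT and 4.39 ± 0.78 in the KO-labelled pools (SD, n = 3 each), with overlapping libraries (exact two-sided permutation p = 0.6). For CD276 to CD274 the ratio was 2.54 ± 0.43 in WT and 3.49 ± 0.85 in the KO-labelled pools (SD, n = 3 each), also with overlapping libraries (exact two-sided permutation p = 0.2, adjusted p = 0.25 over 5 ratios).

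Levels were compared between genes per length, as RPKM (CPM divided by exon length in kilobases). In WT the order was CD47 (mean 61.9 RPKM), PVR (46.8), NECTIN2 (25.8), CD276 (20.0), LGALS9 (11.0), TNFRSF14 (4.80), CD274 (4.64), VTCN1 (1.29) and PDCD1LG2 (0.752). The libraries of CD47 and PVR overlapped, as did those of TNFRSF14 and CD274 and those of VTCN1 and PDCD1LG2, so these neighbours in the order do not differ beyond their spread. The other neighbours did not overlap. In the libraries labelled IRF1-KO, PVR (44.5 RPKM) was above CD47 (34.7) in every library. The ranges of CD47 and NECTIN2 (29.1) overlapped, though CD47 was the higher of them within each library. The ranges of NECTIN2 and CD276 (28.0) also overlapped. CD274 (3.62 RPKM), TNFRSF14 (3.45) and LGALS9 (3.06) overlapped there, whereas in WT every LGALS9 library, at 8.19 to 14.0 RPKM, was above every CD274 library, at 3.56 to 5.61 RPKM.

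**Figure D4:**
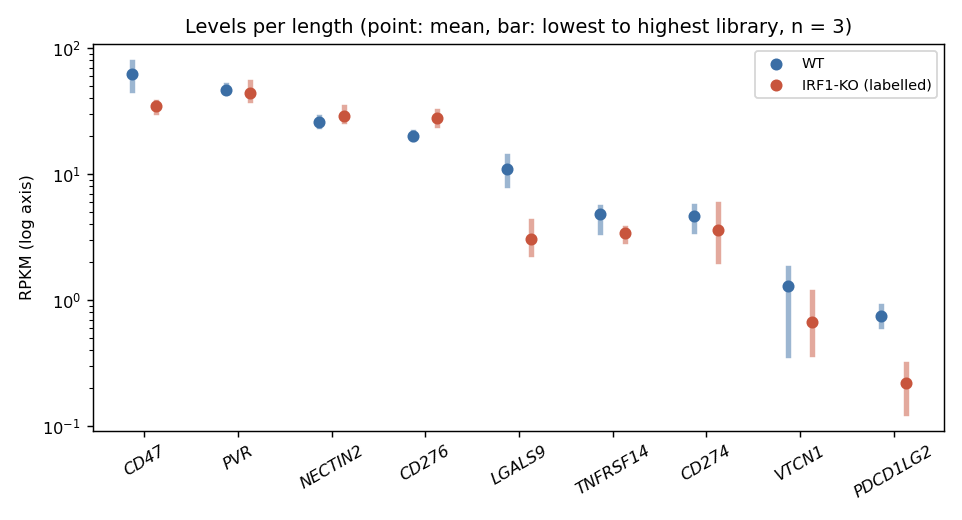
RPKM of the 9 genes on a log axis, ordered by their WT mean; points are means and bars run from the lowest to the highest of 3 libraries. CD47, PVR, NECTIN2 and CD276 lie above 18 RPKM in every library, and PDCD1LG2 lies below 1 RPKM in every library.

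Other genes of these pathways were counted from lists chosen by function. Among 26 other co-signalling ligands, 19 were tested, 0 passed the adjusted threshold with edgeR (0.127% of all tested genes) and 4 with DESeq2 (2.53%). At an unadjusted p under 0.05, 6 were lower (3.75% of all tested genes) and 0 higher (5.39%), and the median log2 fold change was -0.52. The smallest p belonged to HLA-G and HLA-E, non-classical MHC class I genes whose products bind inhibitory receptors, and to the adhesion gene CEACAM1, a proposed ligand of TIM-3. CEACAM1 had means of 50.2 ± 17.8 CPM for WT and 19.2 ± 5.05 CPM in the KO-labelled pools (SD, n = 3 each), a log2 fold change of -1.38 ± 0.29 (SE, edgeR adjusted p = 0.166). HLA-E had 233 ± 33.2 and 146 ± 25.0 CPM (-0.67 ± 0.16, adjusted p = 0.207). HLA-G had 6.77 ± 0.672 and 2.43 ± 0.720 CPM (-1.47 ± 0.28, adjusted p = 0.134), and reads of both HLA genes can be shared with related HLA genes, so their values are uncertain.

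Galectins and nectins outside the 9 genes showed no call with edgeR or DESeq2. Of 13 other galectins, 6 were tested and 0 had an unadjusted p under 0.05. Galectin-8 (LGALS8) had a log2 fold change of -0.23 ± 0.15 (SE), LGALS2 one of -0.42 ± 0.56 and galectin-1 (LGALS1) one of 0.24 ± 0.33. Of 8 other nectin genes and partners, 6 were tested and 1 was lower at an unadjusted p under 0.05, namely AFDN, which anchors nectins to the actin cytoskeleton (-0.34 ± 0.13, edgeR adjusted p = 0.463). NECTIN1 was at -0.27 ± 0.15 and NECTIN4 at -0.79 ± 0.77.

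The receptors that read these ligands, listed with a few of their partners, are mostly genes of immune cells, and most were near absent here. Of 20, 6 were tested and 14 were not, among them PDCD1, HAVCR2, CTLA4 and TIGIT, and CTLA4 and ICOS had no count in any library. No gene of this list passed the adjusted threshold with edgeR or DESeq2, and 1 had an unadjusted p under 0.05, namely TNFSF14, a ligand and not a receptor (log2 fold change -2.50 ± 0.93, SE, edgeR adjusted p = 0.473; -0.96 without WT pool 2). TNFSF14 also would not have passed the filter on low counts on the KO-labelled libraries alone, so this value is not taken as support. SIRPB1 was at -0.63 ± 0.42 and PVRIG at -0.50 ± 0.42. Of 8 NKG2D ligand genes, 5 were tested and 0 had an unadjusted p under 0.05 or a DESeq2 call, with ULBP1 at -0.82 ± 0.64, MICB at -0.25 ± 0.25 and ULBP3 at 0.14 ± 0.19.

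Regulators of PD-L1 and CD47 were all tested. Of these 26 genes, 0 passed the adjusted threshold with edgeR and 3 with DESeq2, where 0.127% and 2.53% of all tested genes did. At an unadjusted p under 0.05, 6 were lower (3.75% of all tested genes) and 2 higher (5.39%), the latter near the background share. Among the 6 lower were JAK2, given above, STAT2 (log2 fold change -0.61 ± 0.17, SE, edgeR adjusted p = 0.299) and IRF2 (-0.45 ± 0.17, adjusted p = 0.469). STAT2 and IRF2 are named after their values were seen. The 2 higher were IRF1 and STUB1. IRF1 had a log2 fold change of 0.51 ± 0.10 (SE, edgeR adjusted p = 0.135). STUB1, a ubiquitin ligase that acts on PD-L1, was at 0.63 ± 0.16 (adjusted p = 0.224) and at 0.20 after GC correction. CMTM6, which keeps PD-L1 at the cell surface, was at -0.03 ± 0.13 and is named after its value was seen.

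Interferon-regulated genes of antigen processing and defence are given as a scale for the values above. Of 12 such genes, 5 passed the adjusted threshold, all lower, where 0.127% of all tested genes passed, and the median log2 fold change was -1.26. This list was drawn up with earlier results of these data known and is no independent evidence of its direction. PLAAT4 (-5.03 ± 0.30, SE, edgeR adjusted p = 0.00454), UBA7 (-3.13 ± 0.24), GBP4 (-3.19 ± 0.26), APOL6 (-2.24 ± 0.18) and PSMB9 (-2.61 ± 0.24) fell, and PSMB9 is named after its value was seen. Among the 7 that did not pass, 5 had negative and 2 positive values, the positive ones being CXCL10 (0.39 ± 0.57) and ICAM1 (0.36 ± 0.59), also named after their values were seen, with overlapping groups. CXCL10 was near the floor of the filter on low counts, with means of 0.708 CPM for WT and 0.920 CPM in the KO-labelled pools. Its log2 fold change ran from -0.36 to 0.73 when libraries were left out.

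**Figure D5:**
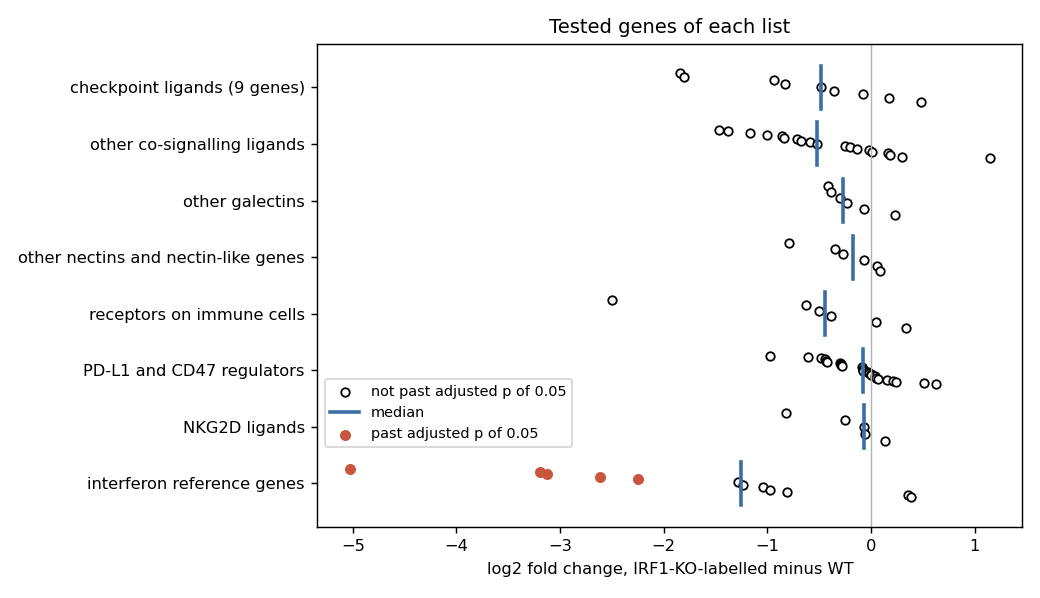
Log2 fold change (IRF1-KO-labelled minus WT) of every tested gene of each list, with filled points past an adjusted p of 0.05, open points not past it, and a bar at the list's median. The filled points are 5 interferon reference genes between -5.03 and -2.24, and the 9 checkpoint ligand genes run from -1.84 to 0.49.

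Genes with the pattern closest to LGALS9 and to CD274 over the 6 libraries were sought among 10996 genes with a mean of at least 5 CPM, by Pearson's r of log2 CPM. For LGALS9 they were USF1 (r = 0.995), DTX3L (0.992), RNF213 (0.992), MARK3 (0.990) and ZRSR2 (0.988). RNF213 had a log2 fold change of -1.17 ± 0.18 (SE, edgeR adjusted p = 0.0718) and DTX3L one of -1.10 ± 0.17 (adjusted p = 0.0711). USF1 was at -0.53 ± 0.13 (adjusted p = 0.205), ZRSR2 at -0.42 ± 0.15 (adjusted p = 0.404) and MARK3 at -0.20 ± 0.09. For CD274 they were MLKL (r = 0.991), ARFGAP3 (0.990), GALK2 (0.989), HGSNAT (0.986) and AARS1 (0.979), with log2 fold changes between -0.19 and -0.07. With 6 libraries and so many genes searched, values of this size are a description of these libraries.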

How the data were processed

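Per the file headers, the deposited table holds raw counts per gene in the layout that featureCounts writes, which the authors made before deposit. Per the submitters' processing notes, featureCounts 0.6.1, edgeR 3.2.2 and the GRCh38 (hg38) build were used. For the aligner, annotation release and strand setting, nothing is given in the sources used here. Symbols for 19342 of 19402 identifiers came from a names table, the rest from GENCODE 29. All 6 count columns matched a sample.

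Counts were fitted in R 4.3.3 with edgeR 4.0.16 (filterByExpr, TMM, robust quasi-likelihood F test, two-sided, Benjamini-Hochberg over all tested genes, threshold 0.05). Standard errors are those implied by the F statistic, and CPM are TMM-scaled. Log2 CPM used a prior count of 2. DESeq2 1.42.0 and limma 3.58.1 were alternatives, as were upper-quartile or RLE factors, testing without a filter, a filter of at least 5 CPM in at least 3 libraries, the replicate number as a block, a GC offset (spline with 5 degrees of freedom per library on transcript GC from GENCODE 29, for 13383 of 13388 genes) and leaving out each library. Such an offset also takes out a true group difference if it tracks GC. Scripts were tested on simulated counts with changes placed in genes above 5 CPM. There edgeR recovered 20% of 1.5-fold, 50% of 2-fold and 96% of 4-fold changes (50 genes each), with 9 false calls. Changes of 2-fold or less can thus be missed at the adjusted threshold, and larger ones can be missed too. The simulation held 50 changed genes of each size, whereas 17 genes were called in these data. More true changes make the adjusted threshold easier to pass, so recovery may be lower here than in the simulation. LGALS9, about 3.58-fold lower in the KO-labelled pools, did not pass. Within groups, chi-square per degree of freedom between libraries was 25.8 to 55.0, so no library was a copy of another.

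The 9 members and the lists were chosen with earlier results of these data known. Named are the members, IRF1, from each list up to 4 genes past the threshold or else the 3 with the smallest p, and the 5 genes most like LGALS9 and CD274; 1 gene that this rule names is not reported here. Genes named outside the rule are marked in the text as named after their values were seen. Ratios between members were added after the data were seen, with an exact permutation test over libraries.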

Additional observations from a re-analysis of the deposited data

How the results depend on the processing

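Over 15 alternatives and the 10 genes followed (the 9 members and IRF1), 139 of 148 values kept their direction and their side of the threshold, 7 became past it and 2 changed sign. The changes of sign were those of PVR, whose log2 fold change ran from -0.23 to 0.0141 when libraries were left out; it was 0.0082 without WT replicate 3 and 0.0141 without replicate 3 labelled IRF1-KO. The count of members past the threshold, 0 of 9, was 3 with DESeq2 (LGALS9, CD47, CD276), and 0 to 1 when each library was left out, with LGALS9 past it without WT replicate 3; the cause was not tested. The count over all genes was 17, and it was 31 with no filter on low counts and 332 with DESeq2. It ran from 3 to 91 when libraries were left out (5 without WT replicate 2, 91 without WT replicate 3, 3 without replicate 1 or 3 labelled IRF1-KO). PDCD1LG2 and VTCN1 were not tested under the filter of 5 CPM.

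Libraries of the 2 groups share replicate numbers, but same-numbered libraries deviated together with correlations of -0.015, 0.253 and 0.057, and WT replicate 1 correlated best with replicate 2 labelled IRF1-KO (0.091), so the numbers were not taken as pairs. With the replicate number as a block, 31 genes and 1 member (LGALS9, log2 fold change -1.86, edgeR adjusted p = 0.0217) were past the threshold. With the block and the GC correction together, 11 genes and 1 member were (LGALS9, -1.79, adjusted p = 0.0206).

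The counts of PDCD1LG2 (8 to 44 per library) limit its precision. Counts over all exons do not tell isoforms apart, so soluble and membrane forms of these proteins were not measured.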

Other observations

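The butyrophilin genes BTN3A1, BTN3A2 and BTN3A3, B7-related surface molecules that gamma-delta T cells read, had lower values in the KO-labelled pools. They belong to the list of co-signalling ligands and were singled out after their values were seen. Other butyrophilins tested in that list had overlapping groups: BTN2A1 (log2 fold change -0.02 ± 0.13, SE) and BTN2A2 (0.17 ± 0.23), also named after their values were seen. BTN3A3 had means of 22.5 ± 5.48 CPM for WT and 9.92 ± 4.05 CPM in the libraries labelled IRF1-KO (SD, n = 3 each), with a log2 fold change of -1.17 ± 0.31 (SE). BTN3A1 was at -1.01 ± 0.33 and BTN3A2 at -0.86 ± 0.27. In all 3 genes every library labelled IRF1-KO was below every WT library, as in 6.75% of tested genes, and pool 2 was the highest of both groups, as it was for LGALS9. None passed the adjusted threshold with edgeR (adjusted p from 0.270 to 0.371), and DESeq2 called BTN3A3 (adjusted p = 0.0211, within a range of 0.0211 to 0.679 over its alternatives). The 3 genes are near-identical in parts, so reads may be split among them.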
